A study of Mus musculus with 8 samples.

Results

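The genes studied here encode 7 transcription factors that carry the beat of the circadian clock to its target genes: Dbp, Tef, Hlf, Nfil3, Bhlhe40, Bhlhe41 and Ciart. Occupancy of the glucocorticoid receptor (GR) and of the forkhead factor FOXO1 was described around each of them, from peak lists of chromatin immunoprecipitation with sequencing (ChIP-seq) in mouse liver. Overlapping regions of the 6 GR lists were merged into 51431 sites. Sites were taken when their centre lay within 50 kb of the gene start (mm10, GENCODE M21), which gave 78 sites, and no site fell to more than 1 of the 7 genes. The same window took 24 of the 8068 FOXO1 regions.

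All groups were livers of male C57BL/6J mice on chow, 12 weeks old at the start, and the labels name no transgene or deletion. Per the study all these livers were collected at a single time, lights off (ZT12). Control mice (ctrl.) ate during the night in the last 7 days. Calorically restricted mice (cal. res.) had their food reduced stepwise over 4 weeks and then received 40% less food than normal, with the meal at lights off (ZT12). CORT mice ate at night and were injected with 5 mg/kg corticosterone, the main glucocorticoid of mice, on 7 days, at ZT11 per the methods. The feeding protocol lasted 8 weeks and the injections 7 days, so age at collection may have differed between groups. The labels name no vehicle injection for the ctrl. livers, so handling and hormone cannot be told apart between CORT and ctrl. Each group had 2 GR libraries, which the methods call biological replicates, and the FOXO1 list was called on 2 merged cal. res. libraries and therefore has no replicate error. The lists hold no expression values, so the tissue label was not checked against marker genes.

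The clock is a loop in which CLOCK and BMAL1 bind E-box sequences and drive their own repressors, and several of the genes described here are driven through the same elements. DBP, TEF and HLF are PAR bZIP activators that bind D-box sequences and, in liver, are known for driving enzymes of detoxification. NFIL3 represses through the same D-boxes, BHLHE40 and BHLHE41 compete at E-boxes, and CIART represses CLOCK and BMAL1. Glucocorticoids are a known systemic time signal for the liver clock.

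The lists differed in length, from 12458 distinct regions in ctrl. replicate 2 to 39136 in CORT replicate 2, and a short list can hold fewer sites. At the 7 genes, peaks were present at 56 and 32 of the 78 sites in the ctrl. libraries, at 38 and 31 in cal. res. and at 47 and 69 in CORT. Read totals were not analysed here. Library names came in 2 styles: ctrl. replicate 2 shared one with the cal. res. pair, and ctrl. replicate 1 the other with the CORT pair, so between cal. res. and CORT style and group cannot be told apart except through the ctrl. pair. The style is a name only, and its source was not given.

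Below are the mm10 sequences (plus strand, 300 bases centred on the summit of the list with the highest percentile) that the results turn on: the strongest GR site of each gene and the further sites of Nfil3, Bhlhe40 and Ciart that overlapped FOXO1. Capitals mark matches to 8 motifs searched on both strands. These were the GR palindrome (GNACA and TGTNC with 3 bases between), the GR hexamer AGAACA, the forkhead motif TGTTTAC, the STAT motif TTCNNNGAA, the E-box CACGTG, the D-box TTATGTAA, the C/EBP motif TTGCGCAA and the ROR element TAGGTCA. A hexamer can lie inside a palindrome. Sequence was read from GRCm38, and the Dbp stretch stops at the transcript start so that no untranslated sequence is printed. The activators come first.
Dbp +1.3 kb, chr7:45704974-45705087: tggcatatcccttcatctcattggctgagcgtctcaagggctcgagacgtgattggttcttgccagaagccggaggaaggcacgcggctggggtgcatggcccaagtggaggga
Tef +34.5 kb, chr15:81839658-81839957: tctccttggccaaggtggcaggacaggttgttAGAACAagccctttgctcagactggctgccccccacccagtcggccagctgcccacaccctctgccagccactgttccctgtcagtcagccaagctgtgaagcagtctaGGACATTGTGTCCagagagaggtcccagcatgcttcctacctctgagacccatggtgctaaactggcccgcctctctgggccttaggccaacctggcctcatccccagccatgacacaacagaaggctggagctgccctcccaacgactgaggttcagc
Hlf +35.3 kb, chr11:90355259-90355558: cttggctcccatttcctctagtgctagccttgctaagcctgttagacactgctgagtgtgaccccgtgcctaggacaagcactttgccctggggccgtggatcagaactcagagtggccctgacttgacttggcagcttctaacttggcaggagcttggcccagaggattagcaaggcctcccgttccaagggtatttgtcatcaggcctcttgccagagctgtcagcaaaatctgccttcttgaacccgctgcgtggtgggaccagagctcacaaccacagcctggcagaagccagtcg
The repressor genes follow.
Nfil3 +5.1 kb, chr13:52974840-52975139: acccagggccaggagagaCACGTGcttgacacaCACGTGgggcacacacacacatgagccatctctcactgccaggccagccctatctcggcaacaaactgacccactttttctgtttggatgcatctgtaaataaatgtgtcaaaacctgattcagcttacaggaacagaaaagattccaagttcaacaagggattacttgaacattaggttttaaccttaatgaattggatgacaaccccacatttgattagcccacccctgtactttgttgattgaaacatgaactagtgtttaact
Nfil3 -0.1 kb, chr13:52981289-52981588: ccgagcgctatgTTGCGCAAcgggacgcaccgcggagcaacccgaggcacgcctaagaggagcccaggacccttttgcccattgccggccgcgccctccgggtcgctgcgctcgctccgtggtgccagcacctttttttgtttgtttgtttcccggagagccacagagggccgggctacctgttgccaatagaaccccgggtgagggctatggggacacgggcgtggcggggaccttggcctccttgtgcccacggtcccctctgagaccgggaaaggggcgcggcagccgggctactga
Bhlhe40 -0.6 kb, chr6:108659471-108659770: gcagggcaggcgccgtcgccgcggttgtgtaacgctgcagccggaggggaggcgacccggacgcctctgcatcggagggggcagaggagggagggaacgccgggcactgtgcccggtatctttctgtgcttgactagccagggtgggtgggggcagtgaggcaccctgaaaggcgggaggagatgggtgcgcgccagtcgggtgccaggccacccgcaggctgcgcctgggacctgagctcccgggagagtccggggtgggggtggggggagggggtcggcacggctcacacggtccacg
Bhlhe40 +7.6 kb, chr6:108668413-108668712: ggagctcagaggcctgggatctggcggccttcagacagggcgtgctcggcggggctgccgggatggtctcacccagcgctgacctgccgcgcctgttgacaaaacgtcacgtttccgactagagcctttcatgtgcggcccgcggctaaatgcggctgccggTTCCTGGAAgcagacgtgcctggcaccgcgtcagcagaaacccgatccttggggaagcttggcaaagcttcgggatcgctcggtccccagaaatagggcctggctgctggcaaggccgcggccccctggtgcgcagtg
Bhlhe41 +36.0 kb, chr6:145829083-145829382: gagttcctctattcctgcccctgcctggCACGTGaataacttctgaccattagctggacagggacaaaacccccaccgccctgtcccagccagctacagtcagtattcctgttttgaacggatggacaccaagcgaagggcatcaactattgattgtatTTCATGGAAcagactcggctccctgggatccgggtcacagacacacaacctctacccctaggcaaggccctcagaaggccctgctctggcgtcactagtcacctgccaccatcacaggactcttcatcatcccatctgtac
Ciart -0.1 kb, chr3:95882629-95882928: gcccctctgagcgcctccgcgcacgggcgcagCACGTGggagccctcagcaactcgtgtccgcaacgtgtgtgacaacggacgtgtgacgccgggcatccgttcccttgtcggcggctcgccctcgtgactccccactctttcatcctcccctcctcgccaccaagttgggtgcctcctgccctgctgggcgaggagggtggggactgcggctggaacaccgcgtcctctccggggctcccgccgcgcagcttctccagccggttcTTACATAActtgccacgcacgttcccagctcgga
Ciart +17.0 kb, chr3:95865113-95865412: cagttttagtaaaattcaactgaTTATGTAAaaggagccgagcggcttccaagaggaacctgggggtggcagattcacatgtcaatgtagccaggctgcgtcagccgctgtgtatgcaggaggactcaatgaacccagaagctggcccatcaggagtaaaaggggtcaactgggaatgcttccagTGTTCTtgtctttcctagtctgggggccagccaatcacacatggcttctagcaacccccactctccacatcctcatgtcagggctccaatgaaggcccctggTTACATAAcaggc
Ciart -22.4 kb, chr3:95904762-95905061: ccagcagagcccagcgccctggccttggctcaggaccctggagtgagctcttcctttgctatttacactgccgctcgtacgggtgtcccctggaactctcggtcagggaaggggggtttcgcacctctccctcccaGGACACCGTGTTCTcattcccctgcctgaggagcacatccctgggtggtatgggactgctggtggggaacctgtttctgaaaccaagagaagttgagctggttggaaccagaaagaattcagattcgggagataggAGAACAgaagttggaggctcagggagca
The Tef window held a full GR palindrome beside a hexamer. The Nfil3 window 5.1 kb downstream of the gene start held 2 E-boxes and its promoter window a C/EBP match. At Ciart, the promoter window held an E-box and a D-box, the window 17.0 kb downstream 2 D-boxes and a hexamer, and the window 22.4 kb upstream a GR palindrome and 2 hexamers. This last window was centred on a summit seen in 3 lists only, both of cal. res. and CORT replicate 2. The summit seen in all 6 lists lay elsewhere in that site. The Bhlhe41 window held an E-box and a STAT match, and the Bhlhe40 window 7.6 kb downstream a STAT match. The printed Dbp stretch held no match, and the unprinted rest of its 300-base window held a STAT match. The strongest Hlf and Bhlhe40 windows held none of the 8 motifs.

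Ctrl. had a peak in both libraries, which is called holding a site from here on, at 32 of the 78 sites (21.4% of all sites in the series were held by ctrl.). Cal. res. held 29 (27.9% of all sites) and CORT held 42 (43.7% of all sites). All 3 groups held 22 (15.7% of all sites), and these 22, called shared sites, were those with a peak in all 6 lists. A peak in 1 list alone was seen at 20 sites (37.4% of all sites), of which 16 were in CORT replicate 2 and 4 in ctrl. replicate 1, the longest lists. No group held 29 sites. A site that 1 group alone held can still have a peak in 1 library of another group. CORT alone held 12 sites, of which 3 had no peak in ctrl. Without ctrl. replicate 2 ctrl. held 56, and without CORT replicate 1 CORT held 70, since a peak in the remaining library then sufficed.

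FOXO1 regions lay at every one of the 7 genes, and all 24 overlapped a GR site (93.6% of all FOXO1 regions did). They fell on 17 of the 78 sites (13.9% of all sites overlapped FOXO1) and on 15 of the 22 sites with a peak in all 6 lists (50.7% of all such sites). The remaining FOXO1 sites were a Hlf site 27.2 kb upstream and a Bhlhe40 site 7.6 kb downstream. Every one of the 7 genes had a site held by all 3 groups (37.9% of protein-coding genes had one) and a site that overlapped FOXO1 (31.2% of protein-coding genes). The strongest GR site overlapped FOXO1 in 7 of 7 genes, as it did in 49.1% of all protein-coding genes with a shared site.

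**Figure D1:**
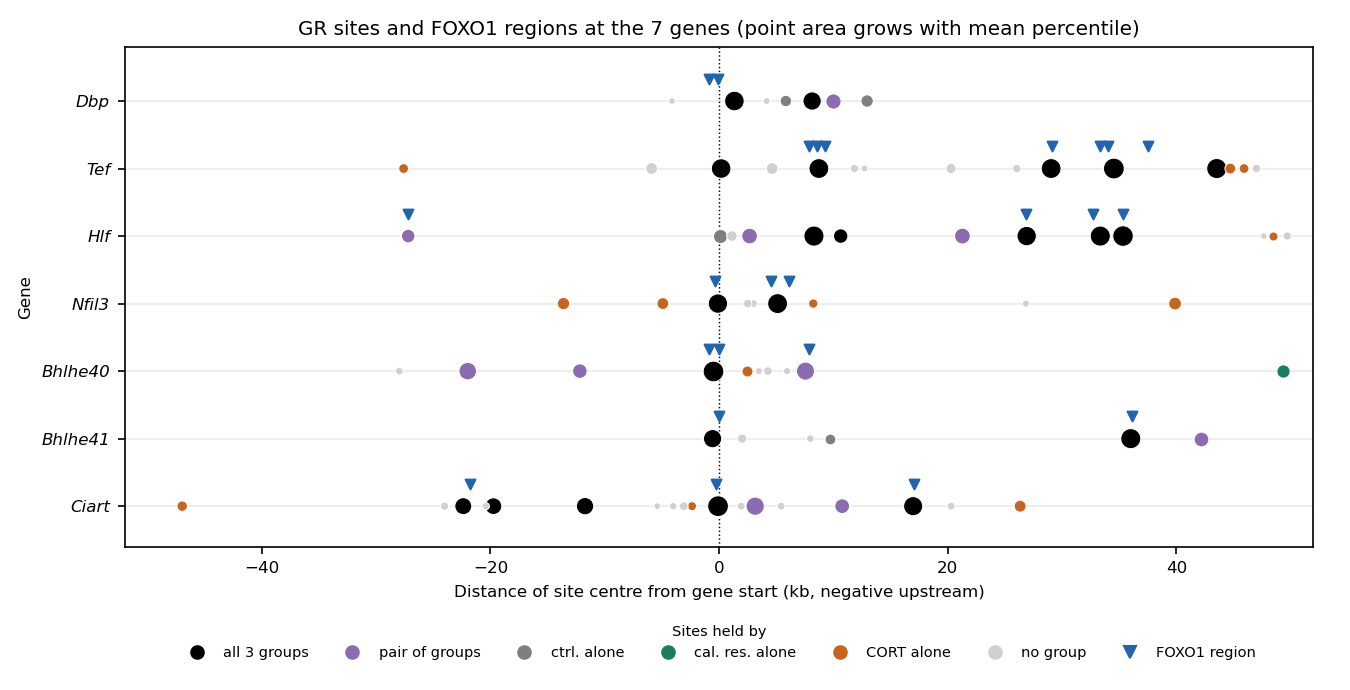
GR sites (circles) and FOXO1 regions (triangles) by distance of their centre from the gene start, in kb, with upstream negative, 1 row per gene. Colour gives the groups that held the site and point area the mean within-list percentile with an absent peak as 0; the 22 black circles were held by all 3 groups, and 5 of the genes had one within 1 kb of the gene start.

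The genes differed in how many sites they had. Ciart had 18 sites, more than 97.8% of protein-coding genes had, Tef 15 and Hlf 13, while Bhlhe40 had 10, Nfil3 9, Dbp 7 and Bhlhe41 6. Sites held by all 3 groups numbered 5 at Ciart, Tef and Hlf, 2 at Dbp, Nfil3 and Bhlhe41 and 1 at Bhlhe40. In 17 other clock genes 12 had a site held by all 3 groups and 12 a FOXO1 site, with a median of 4 sites per gene against 10 for the 7 genes and 3 for all protein-coding genes. In a list of 8 liver genes known as PAR bZIP targets (Abcb1a, Alas1, Cyp2a5, Cyp2b10, Cyp7a1, Nr1i3, Por and Ppara), 5 had a site held by all 3 groups and 7 a FOXO1 site, with a median of 15.5 sites.

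Strength was read as the percentile of a region's fold enrichment among the distinct regions of its list, where 100 is the strongest. Over the 22 sites with a peak in all 6 lists the median percentile was 96.0 and 77.0 for ctrl., 87.4 and 83.4 for cal. res. and 95.2 and 97.3 for CORT. The mean over lists ran from 42.6 at a Hlf intron site to 99.8 at Tef. Percentiles move with list length, so they are descriptions of each library.

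Dbp, the best-known output of the clock in liver, had its strongest site over its promoter and gene body (chr7:45704095-45708760). Its percentiles were 97.9 and 90.8 for ctrl., 83.5 and 57.7 for cal. res. and 94.5 and 97.9 for CORT. Both cal. res. values lay below all 4 others, and the groups ctrl. and CORT overlapped. The second shared site, 8.1 kb downstream in an intron of the neighbour Sphk2 (chr7:45712108-45714351), had percentiles of 82.2 and 62.9 for ctrl., 62.8 and 83.1 for cal. res. and 74.0 and 83.8 for CORT, with no separation of the groups. FOXO1 had 2 regions at Dbp, 0.87 and 0.08 kb upstream of the start, both low in their list (percentiles 6.4 and 7.6).

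Downstream of Dbp, 3 sites were held by ctrl. and had no peak in either cal. res. list. These lay 5.8 kb downstream in a coding exon of Sphk2 (chr7:45710013-45711840), 10 kb downstream at the starts of Sphk2 and Rpl18 (chr7:45714539-45715653) and 12.9 kb downstream near the same starts (chr7:45717735-45718340). The percentiles 10 kb downstream were 47.8 and 79.0 in ctrl. and 70.9 and 91.8 in CORT, which also held that site. At 5.8 kb ctrl. had 35.6 and 80.9 and at 12.9 kb 31.2 and 61.5, and CORT replicate 2 alone of the CORT libraries had a peak there, at 17.5 and 76.4. Over the 7 genes 4 sites were held by ctrl. with no peak in cal. res. (1.75% of all sites), the fourth being a Bhlhe41 site 9.7 kb downstream. With 12458 regions per library none of these 4 was counted, and 1 other site was, at Ciart 10.8 kb downstream (4.1% of all sites were counted). The count was 19 without ctrl. replicate 2 (27.5% of all sites) and 8 without cal. res. replicate 1 (4.33% of all sites).

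Tef, which encodes the thyrotroph embryonic factor, had the strongest site of all 7 genes, 34.5 kb downstream of its start and beyond the gene's end (chr15:81833353-81840566). Its percentiles were 99.9 and 99.3 for ctrl., 99.8 and 99.8 for cal. res. and 99.9 and 100 for CORT, and its fold enrichments were 80.4 and 23.5 for ctrl., 83.6 and 70.5 for cal. res. and 83.5 and 169.9 for CORT. It was at or near the top of every list, so percentiles could not separate the groups. The site held a run of summits, of which the highest, 37.39 kb from the start, lay next to the GR palindrome printed above, and its positions in the 6 lists spanned 27 bp. A FOXO1 region covered the same summit, with a fold enrichment of 9.79 (percentile 85.6).

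Tef's other shared sites were 0.2, 8.7, 29.1 and 43.5 kb downstream. At the promoter site (chr15:81801664-81803542), which also covers the start of Gm17597, percentiles were 92.3 and 78.4 for ctrl., 81.9 and 75.4 for cal. res. and 97.5 and 97.3 for CORT, with both CORT values above the 4 others. At 8.7 kb (chr15:81810155-81812149), where another transcript of Tef starts, they were 96.6 and 87.0 for ctrl., 79.3 and 77.4 for cal. res. and 96.9 and 97.3 for CORT. Both cal. res. values there lay below the 4 others. The intergenic site at 29.1 kb (chr15:81830491-81832452) had 96.2 and 70.4 for ctrl., 89.3 and 94.9 for cal. res. and 91.0 and 97.9 for CORT. The intergenic site at 43.5 kb (chr15:81845376-81846546) had 98.4 and 79.4 for ctrl., 92.1 and 87.6 for cal. res. and 97.1 and 99.0 for CORT. At these last sites ctrl. replicate 2 was lowest, and ctrl. replicate 1 lay between the CORT values. At 43.5 kb both cal. res. values lay below CORT. FOXO1 covered the sites at 8.7 and 29.1 kb but not those at 0.2 and 43.5 kb. CORT alone held 3 more sites, 27.6 kb upstream in Zc3h7b (chr15:81774467-81775184), 44.7 kb downstream (chr15:81846844-81847464) and 45.9 kb downstream in an untranslated region of Tob2 (chr15:81847973-81848723). Ctrl. replicate 1 had a peak at the first and second of them. At the first its percentile of 35.6 lay above both CORT values, 13.5 and 32.4.

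Hlf, named for a fusion found in leukaemia, had its shared sites in its own introns rather than at its start. The strongest, 35.3 kb downstream (chr11:90354888-90356218), had percentiles of 99.5 and 94.4 for ctrl., 96.9 and 96.2 for cal. res. and 95.9 and 98.5 for CORT. Nearby, 33.4 kb downstream (chr11:90356449-90358634), they were 95.8 and 89.8 for ctrl., 97.1 and 95.3 for cal. res. and 85.3 and 90.5 for CORT. CORT replicate 1 was the lowest of the 6, and CORT replicate 2 lay just above ctrl. replicate 2. At 26.9 kb (chr11:90363631-90364341) they were 96.2 and 88.8 for ctrl., 90.4 and 88.7 for cal. res. and 61.0 and 89.3 for CORT. CORT replicate 1 stood far below the others there. FOXO1 lay on these sites at 35.3, 33.4 and 26.9 kb and on none of the shared sites closer to the start.

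The Hlf sites at 10.6 kb (chr11:90379755-90380745) and 8.3 kb (chr11:90381943-90383237) completed the shared set. The first had 49.6 and 46.4 for ctrl., 31.8 and 31.7 for cal. res. and 35.3 and 61.1 for CORT. The second had 97.7 and 73.7 for ctrl., 94.9 and 95.1 for cal. res. and 95.9 and 97.5 for CORT. In percentiles both cal. res. values at 10.6 kb lay below the 4 others. At 8.3 kb both lay below CORT, while ctrl. spanned both groups. Ranked among sites with a peak in every list, neither order held. At 10.6 kb the ranks were 6.7 and 35.0 for ctrl., 10.6 and 14.7 for cal. res. and 4.9 and 10.5 for CORT. Both cal. res. ranks there lay above CORT and between the ctrl. ranks. At 8.3 kb the ranks of cal. res., 86.7 and 89.3, overlapped those of CORT, 86.4 and 88.8. Pairs of groups held the sites at 21.3 kb (chr11:90369059-90370158, ctrl. and cal. res.), 2.7 kb (chr11:90387687-90388767, cal. res. and CORT) and 27.2 kb upstream (chr11:90417901-90418299, ctrl. and cal. res., with FOXO1). Single groups held 0.1 kb (chr11:90390565-90391100, ctrl.) and 48.5 kb (chr11:90342042-90342826, CORT). Libraries of other groups had peaks at both. The highest percentile was 71.7 in cal. res. replicate 1 at 0.1 kb and 26.1 in ctrl. replicate 1 at 48.5 kb.

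Nfil3, the D-box repressor, had 2 shared sites. The stronger, in its intron 5.1 kb downstream (chr13:52974405-52977495), had percentiles of 92.3 and 75.4 for ctrl., 90.4 and 88.0 for cal. res. and 97.1 and 98.0 for CORT. The promoter site (chr13:52979424-52982918) had 90.5 and 58.6 for ctrl., 85.5 and 83.7 for cal. res. and 96.1 and 97.8 for CORT. At both the CORT libraries were the highest of the 6 and ctrl. replicate 2 the lowest. FOXO1 had 3 regions on these 2 sites, among them the strongest FOXO1 region at any of the 7 genes, 6.16 kb from the start, with a fold enrichment of 10.94 (percentile 89.3).

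CORT alone held the remaining 4 Nfil3 sites that any group held. They lay 39.9 kb downstream (chr13:52940904-52941459), 8.2 kb downstream in the intron (chr13:52972498-52973168), 4.9 kb upstream (chr13:52985337-52986652) and 13.6 kb upstream (chr13:52994505-52994860). The site 4.9 kb upstream had no peak in ctrl. or cal. res. and percentiles of 93.1 and 55.8 in CORT. It was the strongest of the 3 sites over the 7 genes that CORT held without a peak in ctrl. (4.28% of all sites). The others were Tef 45.9 kb downstream, with 9.2 and 71.8, and Ciart 2.4 kb upstream, with 20.9 and 39.0. No site was held by cal. res. without a peak in ctrl. (0.842% of all sites), and 11 were held by CORT without a peak in cal. res. (9.72% of all sites). With 12458 regions per library these 3 counts were 0, 0 and 1 (4.41%, 4.73% and 6.23% of all sites). They rest on single libraries. Without ctrl. replicate 1 the first was 17 (27.0% of all sites) and the second 6 (12.9%). Without CORT replicate 1 the first was 22 (24.2%) and the third 32 (35.7%). With 1 library left in a group, its list alone decided whether the group held a site or had no peak.

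Bhlhe40, which encodes DEC1, had 1 shared site, over its promoter (chr6:108658117-108662032), which also covers the start of the neighbouring 0610040F04Rik. Percentiles there were 99.7 and 96.7 for ctrl., 98.5 and 98.2 for cal. res. and 99.1 and 99.2 for CORT. The 6 libraries differed by no more than a few points. Pairs of groups held the sites 22.0 kb upstream (chr6:108638322-108638951) and 12.2 kb upstream (chr6:108648182-108648710), both in introns of 0610040F04Rik, which lacked a peak in ctrl. replicate 2, and 7.6 kb downstream (chr6:108667325-108669044), which lacked one in cal. res. replicate 2. The first held a GR palindrome and reached percentiles of 93.8 in ctrl. replicate 1, with 91.5 and 90.6 for cal. res. and 41.2 and 89.2 for CORT. CORT alone held 2.4 kb downstream (chr6:108662649-108663449), and cal. res. alone held 49.3 kb downstream (chr6:108709633-108710317), a site with a peak in 1 library of each other group.

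Bhlhe41, which encodes DEC2, had 2 shared sites, both with FOXO1. The intergenic site 36.0 kb downstream (chr6:145828781-145830299) had percentiles of 96.3 and 93.9 for ctrl., 94.5 and 81.5 for cal. res. and 98.5 and 88.4 for CORT. The promoter site (chr6:145865247-145867000) had 92.5 and 73.7 for ctrl., 73.7 and 51.6 for cal. res. and 73.3 and 81.1 for CORT. The ranges of the groups met or overlapped at both. The sites at 42.1 kb (chr6:145822988-145823866, ctrl. and CORT) and 9.7 kb (chr6:145855620-145856117, ctrl.) lacked one or both cal. res. peaks.

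Ciart, the repressor also called CHRONO, had its strongest site at its start (chr3:95881261-95883421). Percentiles were 99.4 and 99.6 for ctrl., 99.0 and 98.7 for cal. res. and 99.7 and 99.7 for CORT. CORT lay above and cal. res. below ctrl., by less than 1 point. Among sites with a peak in all 6 lists, CORT ranked at 98.9 and 98.6, between the ctrl. ranks of 97.5 and 99.3. The shared site 17.0 kb downstream in Mrps21 (chr3:95864693-95865843) had 94.3 and 75.6 for ctrl., 84.1 and 55.1 for cal. res. and 91.5 and 96.6 for CORT. The one 22.4 kb upstream at the start of Car14 (chr3:95903509-95905759) had 72.7 and 58.8 for ctrl., 63.0 and 47.3 for cal. res. and 53.4 and 81.1 for CORT. These 3 sites overlapped FOXO1, at percentiles of 34.5, 33.5 and 30.6 in the FOXO1 list.

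Without FOXO1 were the Ciart sites 11.7 kb upstream at the start of Aph1a (chr3:95893486-95894477) and 19.7 kb upstream in Car14 (chr3:95901497-95902476). The first had 64.1 and 67.1 for ctrl., 54.6 and 38.1 for cal. res. and 82.2 and 90.0 for CORT. The second had 82.5 and 5.6 for ctrl., 54.3 and 41.6 for cal. res. and 85.0 and 93.4 for CORT. At both the CORT percentiles were the highest of the 6. Among sites with a peak in all 6 lists, however, the first ranked at 56.2 in ctrl. replicate 2 and 50.5 in CORT replicate 1. Cal. res. and CORT held the site 3.2 kb downstream within Ciart (chr3:95878545-95879628), where ctrl. replicate 2 lacked a peak and ctrl. replicate 1 had 96.3. Ctrl. and CORT held 10.8 kb downstream (chr3:95871036-95871920) at the starts of Mrps21 and C920021L13Rik. CORT alone held 26.3 kb downstream at the starts of Prpf3 and Gm26594 (chr3:95855579-95856248), 2.4 kb upstream (chr3:95884319-95884923) and 47.0 kb upstream at the start of Anp32e (chr3:95928881-95929565).

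**Figure D2:**
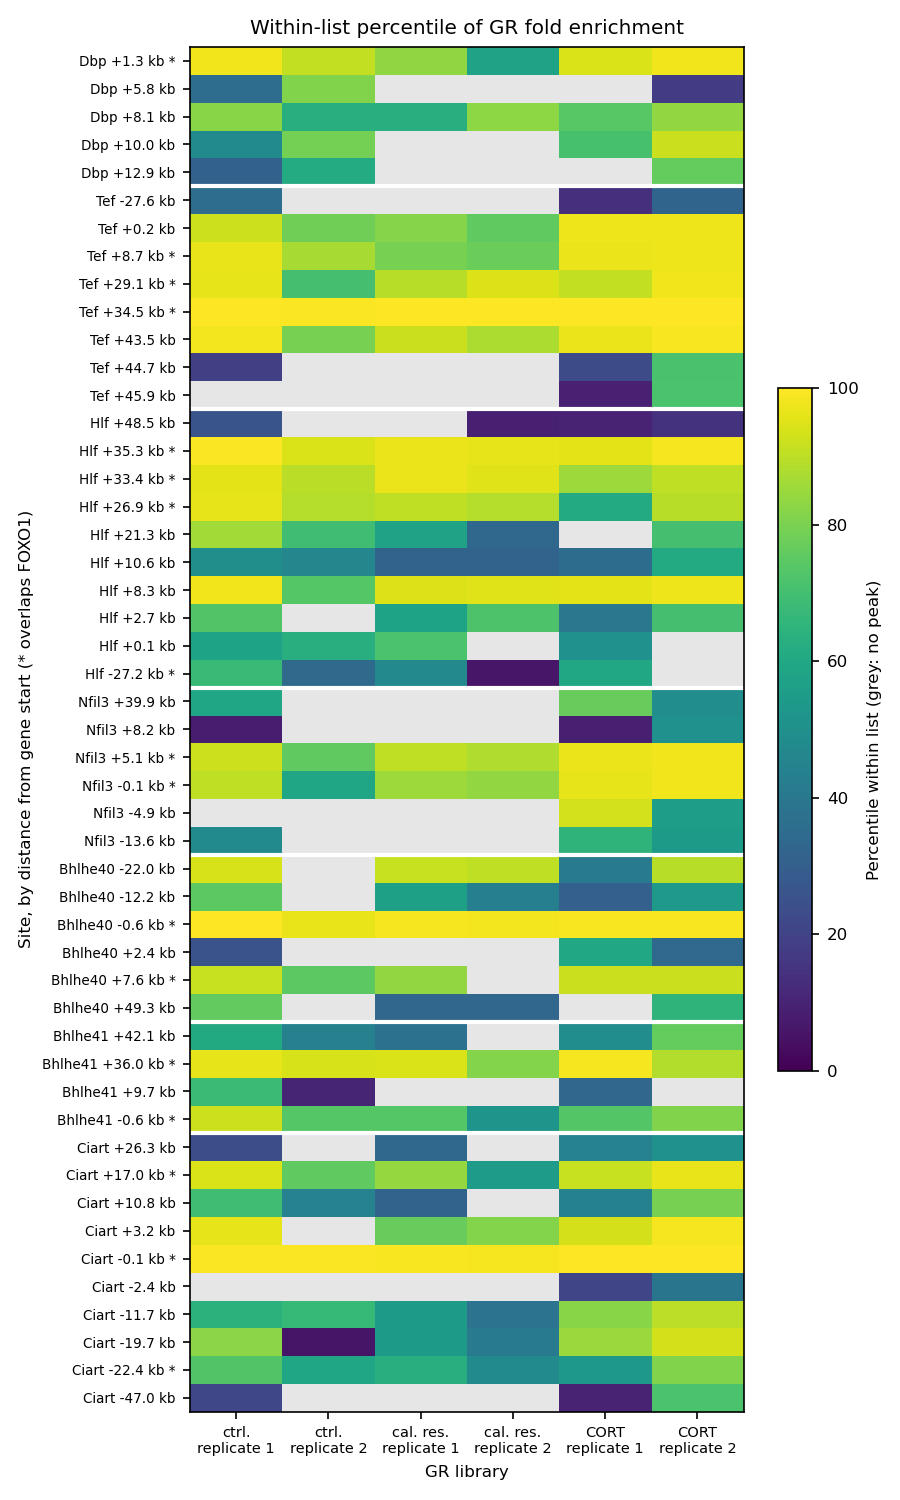
Within-list percentile of GR fold enrichment (colour, 0 to 100) at the 49 sites that at least 1 group held or that overlapped FOXO1 (asterisk), 1 column per library; grey marks no peak. The rows of the strongest Tef and Ciart sites are near 100 in each column, and the Dbp row at +1.3 kb drops to 83.5 and 57.7 in the cal. res. columns.

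Whether GR enrichment differed between groups was tested over the 8097 sites with a peak in all 6 lists, on quantile-normalised log2 fold enrichment with limma and Benjamini-Hochberg adjustment over these sites. At the 7 genes 0 of 22 sites passed an adjusted p of 0.05 in any of the 3 comparisons. Over all common sites the calls were 0.0% for cal. res. against ctrl., 0.198% for CORT against ctrl. and 0.111% for cal. res. against CORT, that is 0, 16 and 9 sites. At an unadjusted p under 0.05 the numbers at the 7 genes were 2, 6 and 6 of 22, and over all common sites 811, 1014 and 1336. The median distance from estimate to bound of the 95% interval at the 22 sites was 0.75 on the log2 scale. These intervals are not adjusted for the number of sites. A difference as wide as -1.14 did not pass either, so 0 of 22 is no measure of absent change. Leaving out 1 library moved the calls over all common sites to between 0 and 20, 0 and 59, and 0 and 385 in the 3 comparisons, the highest each time without ctrl. replicate 2. The sites of these fits needed a peak in the remaining lists only, so at the 7 genes they were not always the same 22. The lone library of a group is assumed in these fits to vary like the other groups.

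The median log2 difference of the 22 sites was -0.26 for cal. res. minus ctrl., 0.14 for CORT minus ctrl. and -0.36 for cal. res. minus CORT, beside medians of 0.0, -0.02 and 0.04 over all common sites. Under the other settings the median for CORT minus ctrl. ran from -0.02 to 0.33 and so changed sign. The others ran from -0.29 to -0.05 and from -0.48 to -0.03. With name style as a term the medians were -0.14 for cal. res. minus ctrl. and for cal. res. minus CORT.

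Among the 22 sites the widest difference between cal. res. and ctrl. was at Dbp, over its promoter. Normalised log2 fold enrichment averaged 3.15 in cal. res. and 4.3 in ctrl., a difference of -1.14 (SE 0.346, 95% interval -1.9 to -0.39, limma adjusted p = 0.341). Against CORT the difference was -1.02 (SE 0.346, limma adjusted p = 0.182). Under the 7 other settings in which this site could be matched, the difference from ctrl. lay between -1.37 and -0.84. In those of them with all 6 libraries the limma adjusted p lay between 0.161 and 0.434. The site could not be matched with an equal number of regions per list or without ctrl. replicate 1, among others. Ranked among the 8097 common sites of each list, Dbp stood at 91.0 and 86.8 for ctrl., 61.8 and 35.0 for cal. res. and 82.0 and 90.3 for CORT. With name style as a term, which only the ctrl. pair can estimate, the difference from ctrl. was -1.02 (limma adjusted p = 0.161).

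The CORT libraries had the higher values at the Tef promoter and internal start and at both Nfil3 sites, none of which passed. At the Tef sites 29.1 and 43.5 kb downstream the libraries of CORT and ctrl. overlapped. The Tef promoter site differed by -1.02 between cal. res. and CORT (SE 0.323, limma adjusted p = 0.159), and the internal start 8.7 kb downstream by -0.98 (SE 0.318, limma adjusted p = 0.164). The Nfil3 promoter site differed by 0.97 between CORT and ctrl. (SE 0.329, limma adjusted p = 0.276), and the intron site by 0.82 (95% interval 0.14 to 1.51, limma adjusted p = 0.331). The Nfil3 promoter ranked at 63.8 and 47.0 among common sites for ctrl., 65.7 and 67.7 for cal. res. and 87.2 and 89.9 for CORT. With name style as a term the promoter difference between CORT and ctrl. was 0.8 (limma adjusted p = 0.291).

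A pair of Hlf intron sites had differences of the opposite sign. The site at 33.4 kb averaged 4.41 in cal. res. and 3.36 in CORT, a difference of 1.05 (SE 0.317, 95% interval 0.36 to 1.74, limma adjusted p = 0.147). The site at 26.9 kb differed by 0.85 between these groups (limma adjusted p = 0.263) and by -1.11 between CORT and ctrl. (SE 0.356, limma adjusted p = 0.266). The first ranked at 82.2 and 85.2 among common sites for ctrl., 92.1 and 89.5 for cal. res. and 57.1 and 60.7 for CORT. With name style as a term its difference between cal. res. and CORT was 0.93 (limma adjusted p = 0.265). The Ciart site 19.7 kb upstream differed by 0.95 between CORT and ctrl. (95% interval 0.12 to 1.79, limma adjusted p = 0.349), and without 1 library the difference ran from 0.48 to 1.46. The comparisons with ctrl. share the same ctrl. libraries.

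**Figure D3:**
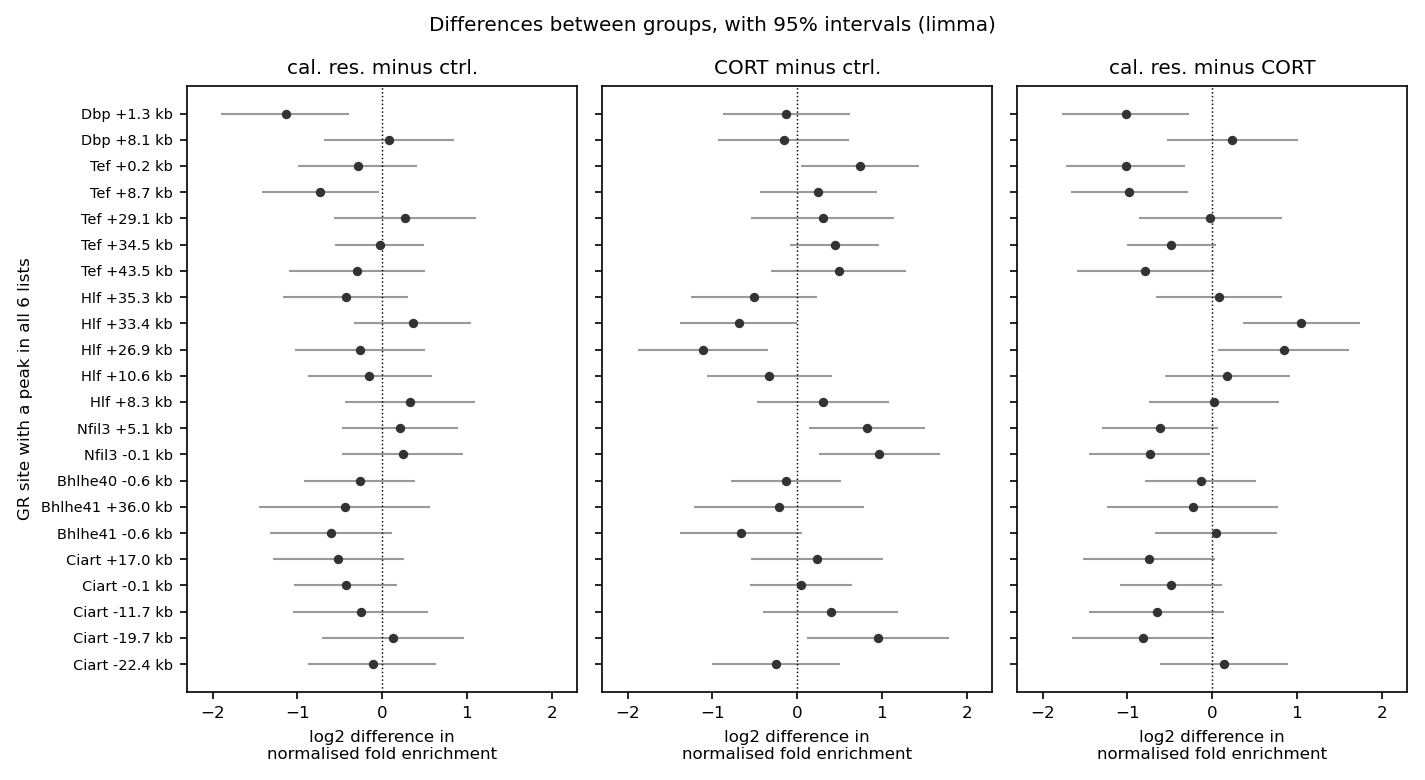
Log2 difference in quantile-normalised GR fold enrichment (horizontal axis) at the 22 sites with a peak in all 6 lists, for the 3 comparisons, with 95% intervals from limma over 2 libraries per group. Most intervals cross 0, Dbp +1.3 kb is at -1.14 in the left panel, and Hlf +33.4 kb at 1.05 in the right panel; none passed the adjusted threshold.

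The percentile of the strongest site within 50 kb of each gene, taken in each library on its own, was also compared with exact two-sided permutation tests over libraries, in 21 tests. With 2 against 2 libraries the smallest p that can be reached is 0.333, which 9 of the 21 tests reached, so no difference could pass. The widest gaps were at Nfil3, with a mean of 97.5 in CORT against 83.8 in ctrl. (higher in 2 of 2 libraries, exact permutation p = 0.333), and at Dbp, with 83.3 in cal. res. against 96.2 in CORT and 94.4 in ctrl. (exact permutation p = 0.333 for both). In cal. res. replicate 2 the strongest Dbp site was the one 8.1 kb downstream.

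Several shared sites were wide and held more than 1 summit, so the highest value of a list need not come from the same place in each library. Summits of the 6 lists no more than 150 bp apart were therefore grouped, a step added after the values were seen. Of the 22 sites, 20 had a summit group present in all 6 lists and 6 had more than 1. At Dbp one group lay 0.05 kb upstream of the gene start, with fold enrichments of 25 and 8.2 for ctrl., 10.9 and 4.6 for cal. res. and 21.4 and 31.3 for CORT. The other lay 2.67 kb into the gene, with 12.4 and 6.4 for ctrl., 8.6 and 5.5 for cal. res. and 6.6 and 12.2 for CORT. In cal. res. replicate 2 the latter was the higher, so its value in the comparison above came from another summit than in the other libraries.

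A ratio between summits was also taken within each list, in which a purely multiplicative factor of the list cancels but a compression of weak lists does not. It was taken between the summit group nearest to a transcript start, at most 500 bp away, and the strongest other group, at the 5 sites of the 7 genes that had both. At Dbp it was 2.02 and 1.28 for ctrl., 1.27 and 0.83 for cal. res. and 3.23 and 2.57 for CORT. At the Ciart start, for summits 0.02 and 0.54 kb upstream, it was 0.46 and 0.3 for ctrl., 0.24 and 0.38 for cal. res. and 0.98 and 0.97 for CORT. For the Bhlhe40 summits 0.17 and 1.01 kb upstream it was 0.46 and 0.61 for ctrl., 0.52 and 0.42 for cal. res. and 0.92 and 1.4 for CORT. In these 3 of 5 sites both CORT lists lay above the 4 others (24.3% of all 230 such sites in the series). The share of name style in this was not tested.

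The other 2 sites did not show this. At the Nfil3 promoter the ratios were 1.68 and 0.86 for ctrl., 1.36 and 1.85 for cal. res. and 1.56 and 2.87 for CORT, which overlapped. At the internal Tef start they were 0.98 and 0.99 for ctrl., 0.91 and 1.27 for cal. res. and 0.85 and 0.28 for CORT, the lowest of the 6. Over all 230 common sites with such a pair, both CORT lists lay below the 4 others in 5.65%. The ctrl. pair lay above in 8.7% and the cal. res. pair in 4.78%, with cal. res. below in 26.1%. The share of 3 in 5 rests on 5 sites.

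**Figure D4:**
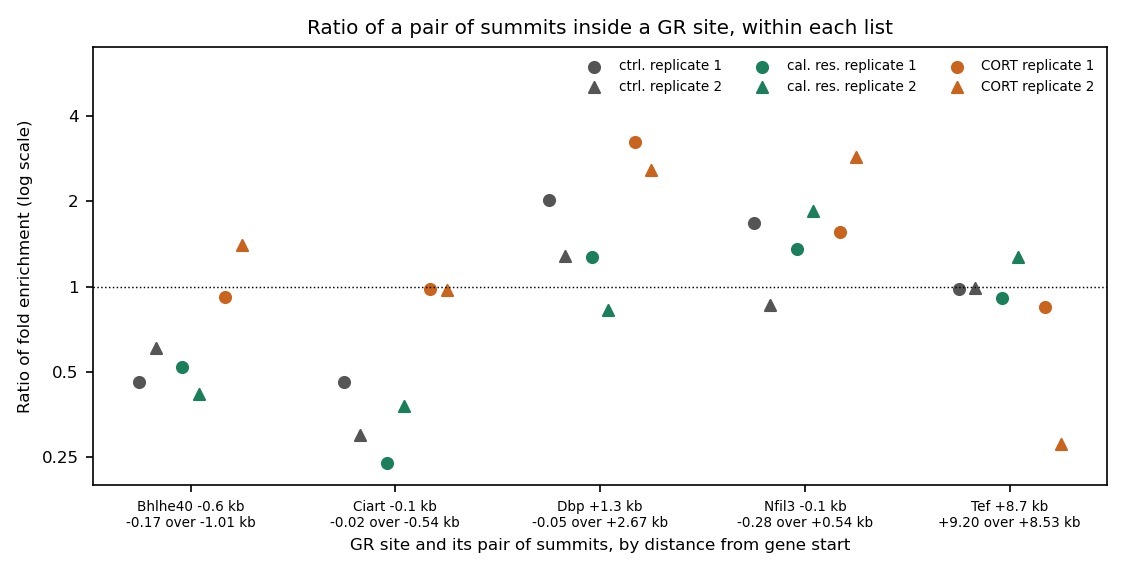
Ratio of fold enrichment (log axis) between the summit group nearest to a transcript start and the strongest other group, within each list, at the 5 sites with both; colours give groups and symbols replicates. At Bhlhe40, Ciart and Dbp both CORT points lie above the 4 other points, at the internal Tef start both lie below, and at Nfil3 they overlap.

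Motif matches were counted in the 300 bases around the summit of each of the 78 sites and, with no test, set beside all sites. The E-box, the binding sequence of CLOCK and BMAL1, was found at 15 of the 78 sites (19.2%), against 6.78% of all sites, and at 8 of the 22 shared sites, against 9.12% of all shared sites. Each of the 7 genes had at least 1 site with an E-box, as did 24.7% of all protein-coding genes and 53.3% of those with at least 6 sites. They were most frequent at Hlf with 4 sites and Bhlhe41 with 3. E-box windows had a GC content of 44.0 to 71.3%, and the median was 53.3% over the 78 sites and 49.0% over all sites. Over the 22 shared sites it was 58.5%, against 52.3% over all shared sites. Base composition thus differed too, and its part was not tested. In windows of 200 bases 10 sites kept an E-box, against 4.72% of all sites. Of the shared sites, those of Hlf at 26.9 and 8.3 kb and of Tef at 0.2 and 8.7 kb kept one. Those of Dbp, Nfil3, Bhlhe41 and Ciart did not, so the E-boxes in the printed sequences lay outside these narrower windows.

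The letters TGTTTAC were absent from all 78 windows, including those of the 17 sites that overlapped FOXO1. Of all sites 6.93% held them, and of all FOXO1-overlapping sites 17.2%. The windows were centred on GR summits, and FOXO1 regions were not searched as such. The strongest FOXO1 summit lay outside the window at Dbp +1.3 kb (186 bp away), Tef +8.7 kb (299 bp), Ciart -22.4 kb (934 bp) and Bhlhe41 -0.6 kb (997 bp). The looser form TNTTTAC, added after the values were seen, occurred at 3 of the 17 against 28.2% of FOXO1-overlapping sites. GR palindromes were found at 5 sites (2.11% of all sites held one), at Tef, Hlf, Bhlhe40 and Ciart. Hexamers were found at 22 sites, or 28.2%, against 25.1% of all sites. They numbered 8 at Tef, 6 at Ciart and 5 at Hlf, and none at Dbp and Bhlhe41.

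D-boxes, which the PAR bZIP factors and NFIL3 bind, occurred at 3 sites, of which 2 were shared Ciart sites and 1 a Nfil3 site held by no group. That is 3.85% against 2.09% of all sites, and 1 was left in windows of 200 bases. ROR elements were at 3 sites, at Hlf and Tef, close to the 3.82% of all sites. STAT letters were at 8 sites, or 10.3%, against 10.9% of all sites. The 1 C/EBP match was the one at the Nfil3 promoter.

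**Figure D5:**
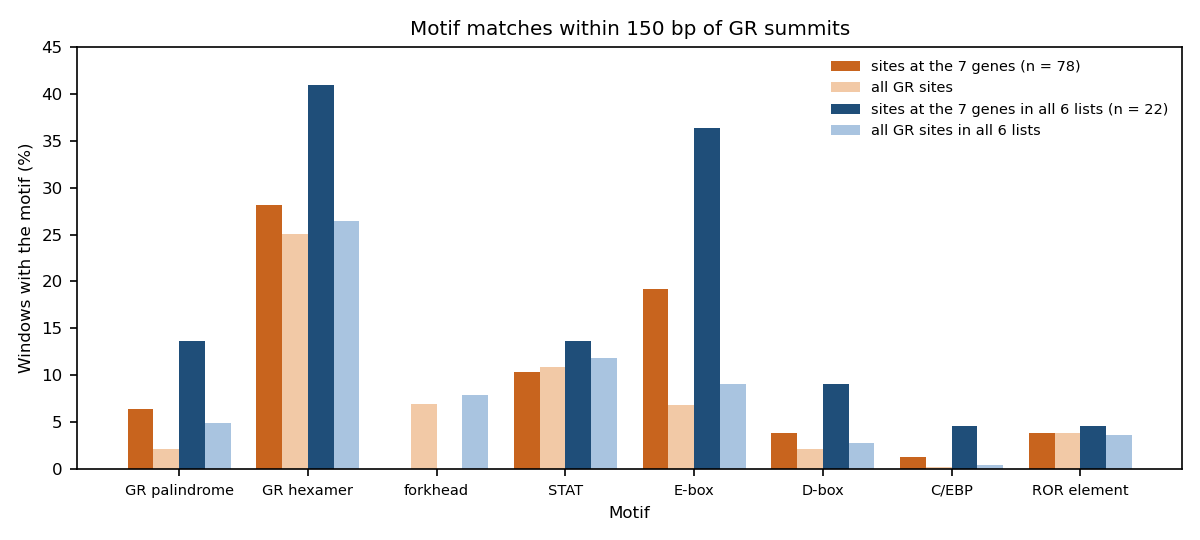
Share of windows of 300 bases with each motif (%), for the 78 sites at the 7 genes, all GR sites of the series, the 22 shared sites and all shared sites. The E-box bars of the 7 genes (19.2% of 78 and 8 of 22) stand above those of all sites (6.78%) and all shared sites (9.12%). No forkhead match was found in these windows, centred on GR summits, at the 7 genes.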

How the data were processed

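GR ChIP-seq peak lists of 6 mouse livers (2 per group) and 1 FOXO1 list were analysed. Per the methods, the authors aligned reads to mm10 with BWA, filtered them with Picard and by mapping quality above 28, called GR peaks with MACS2 at a q-value of 0.1 and removed blacklisted regions with bedtools; whether an input control was used is not given in the sources used here. GR peaks were called per sample and FOXO1 peaks on merged libraries at a far stricter q-value: the largest q was 9.84e-06 in the FOXO1 list and 0.0994 to 0.0998 in the GR lists. The deposited columns used were the fold enrichment over local background (a ratio) and the −log10 p and −log10 q values of each peak; the deposited integer score was not used for any result. The lists give no read depth per library, so counting intervals could not be computed. Peak width, height and number move with depth and the call threshold.

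Rows of one list that share an interval were reduced to the one with the highest fold enrichment, and regions sharing at least 1 bp were merged over the 6 lists with Python 3.11.15 (pandas 2.3.3, NumPy 2.4.6, SciPy 1.17.1). Groups came from the sample labels. Enrichment was compared with limma 3.58.1 in R 4.3.3 (lmFit and eBayes with a trend, adjusted p under 0.05) on quantile-normalised log2 fold enrichment at sites with a peak in all 6 lists, which leaves out sites lost in 1 group. The script was tested on simulated data. The genes and lists were chosen with earlier results of these data known. All 7 genes are named; sites that a group held or that overlapped FOXO1 are given by position, and values in all 6 lists are given for the strongest site of each gene, for those with a peak in every list and for those of cal. res. or CORT without a peak in ctrl. Summit groups, their ratios, the looser forkhead letters and the alternatives for presence between groups were added after the values were seen. Alternatives covered the peak threshold, list length, overlap, window, FOXO1 threshold, scaling, name style, replicate number and leaving out each library.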

Additional observations from a re-analysis of the deposited data

How the results depend on the processing

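In the 13 other settings of the limma fit no shared site at the 7 genes passed, and in fits without 1 library the adjusted p at Dbp rose as high as 0.998, so these say little about stability. The 14 differences with an unadjusted p under 0.05 kept their sign in the 7 to 10 settings in which each could be matched. Calls over all common sites moved widely. For cal. res. minus ctrl. they were 2 with an equal number of regions per list and 22 with median centring, and 0 to 20 without 1 library. For CORT minus ctrl. they were 27 with name style as a term, 0 on percentiles and 0 to 59 without 1 library. For cal. res. minus CORT they were 49 with equal regions, 0 with name style, 315 with median centring, 20 on the p-value column, 0 on percentiles, 22 at a q of at most 0.01 and 0 to 385 without 1 library. The replicate block left 2 calls there; same-numbered libraries correlated at -0.11, -0.14 and 0.13, so the numbers were not taken as a pairing. Sites held at the 7 genes by ctrl. numbered 56 when either library sufficed and 32 to 56 without 1 library. Those held by CORT numbered 74 with either library, 27 within 25 kb, 23 with equal regions and 42 to 70 without 1 library. All 3 groups held 37 with either library. FOXO1 overlapped 10 within 25 kb and 9 with the stronger 50% of its regions. The median percentile of the strongest sites was 94.4 in cal. res. and 93.4 in CORT with equal regions, 97.4 in CORT by p-value, and without 1 library 94.4 to 99.4 in ctrl., 96.2 to 97.1 in cal. res. and 98.5 in CORT. With windows of 200 bases 3 of 8 motif counts fell or rose by over 1.5 times. The cause was not tested for any of these. Read depth per library was not analysed here, and an absent peak is no measure of absent binding.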

Other observations

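The FOXO1 regions at the 7 genes ranged from a percentile of 6.4 to 89.3 in their list, with a median of 43.2, and 12 of the 24 stood above 50. The activator gene Tef had 7, of which the one 37.50 kb downstream reached a fold enrichment of 9.79 and the one 8.56 kb downstream 9.35, while the 2 at Dbp had 4.29 and 4.34. Hlf had 4, with 8.39 in its intron 35.35 kb from the start (percentile 79.0) and 4.34 at 27.19 kb upstream. The repressor genes Nfil3 and Bhlhe40 had 3 each, and the Nfil3 promoter region, 0.38 kb upstream, reached 7.88 (percentile 75.5). Within 1 kb of a gene start lay 7 of the 24, in 5 genes. The share of all FOXO1 regions so near a start was not counted, so this is a description only.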
